A study of Drosophila melanogaster with 36 samples.

Results

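The transcriptome of females of the inversion strain INV2 was compared with that of females of a revertant strain, REV2. Membership followed from strain and sex alone, and 6 of the 36 arrays of the series belong to it, 3 of INV2 and 3 of REV2. The study moved part of chromosome arm 2R of Drosophila melanogaster by an induced inversion, to learn whether splitting a block of genes kept together across the genus, the ultraconserved region CG15121 to CG16894, changes gene expression in adults. One-colour arrays were made for both sexes of 6 strains, INV1 and INV2 with the inversion and REV1, REV2, SIM1 and REC without it, each strain and sex in 3 biological replicates lettered A to C.

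INV2 flies are homozygous for the inversion and carry a functional mini-white eye reporter, which the recombination event rebuilt, so that their eyes are red. REV2 was made by reverting the inversion with a further heat-shock pulse, which put the gene order back. It keeps reduced forms of both transposable elements and has white eyes, and the sources used here do not say from which inversion strain it came. Both strains have the w1118 background. INV1 and REV1 are the equivalent strains of these kinds, REC carries both elements with the region intact and has red eyes, and SIM1 is a control from a failed inversion event, with the region intact, the reduced elements and white eyes. Each sample pooled 50 virgin flies aged 5 to 7 days, from low-density crosses. Each group is 1 strain, so the inversion, the eye reporter, the extra heat shock of REV2 and any other difference between these 2 strains cannot be told apart in this comparison alone, and the p-values measure the spread between samples of a strain.

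An inversion reverses a stretch of chromosome without adding or removing genes, and at each end it joins sequences that were apart before. It can alter transcription of a gene that it separates from its regulatory elements, while genes within it keep their neighbours except at the ends. The white gene encodes a transporter that brings pigment precursors into the cells of the compound eye, and a mini-white reporter restores pigment in flies that lack white. FLP recombinase acts on pairs of FRT sites, and the orientation of the sites sets whether a segment is inverted or removed.

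A total of 16637 transcripts, listed by FlyBase identifier, were measured on each array. On the 6 arrays the deposited fluorescence intensities lay between 135.4 and 50883. Levels are given as log2 intensities after scale normalization, and the female arrays then had a median of 10.67. This step brings the sexes to a common median by multiplying log2 values, by 1.03 on the female arrays and by 0.97 on the male arrays, so that differences between strains are stretched or shrunk by these factors. Folds are given from the deposited intensities. Their sorted values were nearly equal between female arrays, so the deposited values may already have been quantile-normalized within a sex, which the methods do not state. The median SD between the 3 arrays of a strain was 0.10 in INV2 females and 0.12 in REV2 females, against 0.07 to 0.10 in females of the other 4 strains. The arrays did not sort by strain in every respect. INV2 array A correlated more closely with REV2 array C (r = 0.9965 across transcripts) than with INV2 arrays B and C (r = 0.9940 and 0.9946). REV2 array B correlated less closely with REV2 arrays A and C (r = 0.9926 and 0.9928) than with arrays of other strains. These were REV1 array A (r = 0.9972) and INV2 arrays B and C (r = 0.9949 and 0.9945), among others. REV2 array B also had the largest SD of deviations from its group mean among the female arrays (0.16). Leaving out INV2 array A alone gave 42 of the calls described next in place of 67, leaving out REV2 array B alone gave 48, and leaving out both gave 56.

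INV2 and REV2 females differed in few transcripts. At a Benjamini-Hochberg adjusted p under 0.01 (limma), 67 of the 16637 transcripts were called (0.403%), of which 44 were higher in INV2 (0.264%) and 23 were lower (0.138%). In 17 of the 67 the difference exceeded 1 on the log2 scale, 7 of them higher and 10 lower in INV2, and in the deposited intensities 5 were more than 2-fold higher and 9 more than 2-fold lower. The median size was 0.75 on the log2 scale, with a range of 0.36 to 2.68, whereas the median absolute difference of all transcripts was 0.08. At an unadjusted p under 0.05 there were 1818 transcripts (10.9%). The 3 INV2 arrays did not overlap the 3 REV2 arrays in any of the 67, and in 1939 of all transcripts (11.7%).

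The number of calls rested on the spread shared by all 18 female arrays. The fit of the 6 arrays alone called 12 transcripts, 11 of them among the 67. All 67 had an unadjusted p under 0.05 in that fit. They were chosen by their difference on these same arrays, so this is no separate support. Without INV2 array B the number of calls was 33, without INV2 array C 33, without INV2 array A 42 and without REV2 array A 34. Of the 67 transcripts, 25 remained called whichever one of the 18 female arrays was left out. Few of the called transcripts were dim by their mean over all female arrays. With all transcripts cut into 4 equal classes by mean female level, 3, 28, 29 and 7 were called from the dimmest class to the brightest. The dimmest class ended at 8.50, and some others were that low in 1 strain. INV2 means went down to 8.05 among transcripts lower in INV2, and REV2 means to 8.09 among those higher.

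**Figure D1:**
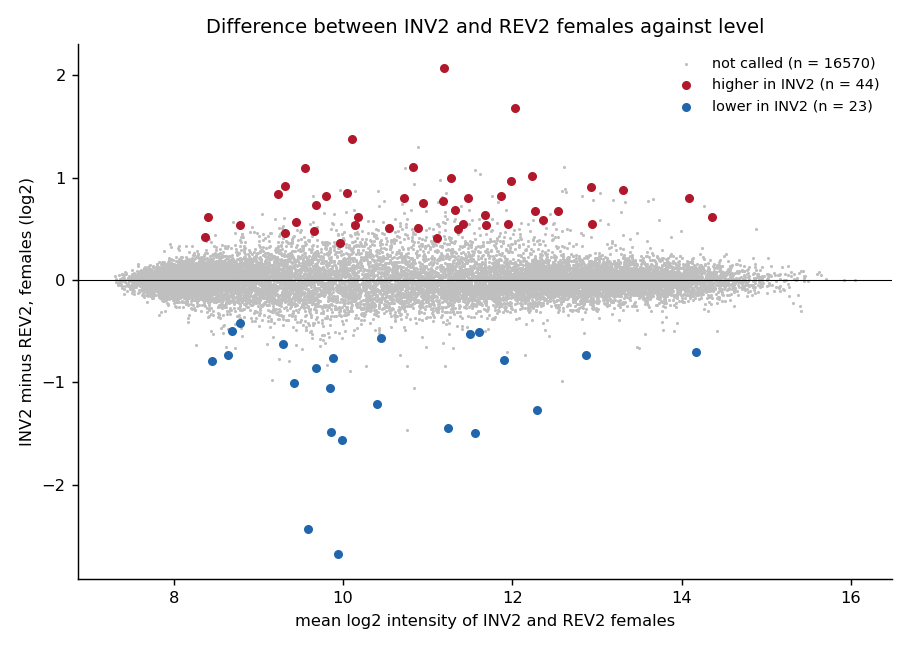
Each point is a transcript, placed by its mean log2 intensity in INV2 and REV2 females (horizontal) and by the log2 difference INV2 minus REV2 in females (vertical), with the 44 transcripts called higher in INV2 in red and the 23 called lower in blue. The called transcripts lie mostly at middle intensities, and the largest differences are -2.68 and 2.07.

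The strongest differences belonged to transcripts of neighbouring identifiers. FBtr0086478 had log2 intensities of 8.50, 8.66 and 8.64 on the INV2 arrays A, B and C, against 11.20, 11.68 and 10.96 on the REV2 arrays. FBtr0086479 had 8.40, 8.31 and 8.40 on the INV2 arrays, against 10.67, 10.91 and 10.82 on the REV2 arrays. All 3 INV2 arrays were low and close together in both transcripts, and all 3 REV2 arrays were far above them. The differences were -2.68 ± 0.14 for FBtr0086478 and -2.43 ± 0.08 for FBtr0086479 (SE, n = 3 arrays each, limma adjusted p = 1.01e-08 and 8.36e-12), and the deposited intensities were 6.11-fold and at least 5.16-fold lower in INV2. The level of FBtr0086479 in INV2 lay in the dimmest 25% of transcripts and no background signal is given, so its fold is printed as a bound. The INV2 mean of FBtr0086478, 8.60, lay just above that class, which ended at 8.50, so its fold may be a bound too.

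The preceding identifier moved the other way. FBtr0086477 had 11.05, 11.61 and 11.49 on the INV2 arrays, against 10.25, 10.47 and 10.10 on the REV2 arrays, so that INV2 was high on each array although its array A lay closest to REV2. The difference was 1.11 ± 0.12 (SE, n = 3 arrays each, limma adjusted p = 7.19e-05). This transcript was taken up because it was among the few called in males. The deposited file does not say whether the 3 identifiers are transcripts of 1 gene or share probes.

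FBtr0070490 had the largest rise. Its log2 intensities were 12.32, 12.27 and 12.08 on the INV2 arrays, against 10.26, 10.02 and 10.19 on the REV2 arrays, a gap many times wider than the spread within either strain. The difference was 2.07 ± 0.07 (SE, n = 3 arrays each, limma adjusted p = 3.3e-11), and the deposited intensities were 4.04-fold higher in INV2. FBtr0077025 was next, with 12.64, 13.02 and 12.95 on the INV2 arrays, against 11.03, 11.55 and 10.997 on the REV2 arrays. Its arrays were more scattered, with INV2 array A the lowest of its strain and REV2 array B the highest, but the strains did not overlap. The difference was 1.68 ± 0.19 (SE, n = 3 arrays each, limma adjusted p = 0.000191), and in the fit of the 6 arrays alone its adjusted p was 0.0148, so that it was not called there.

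**Figure D2:**
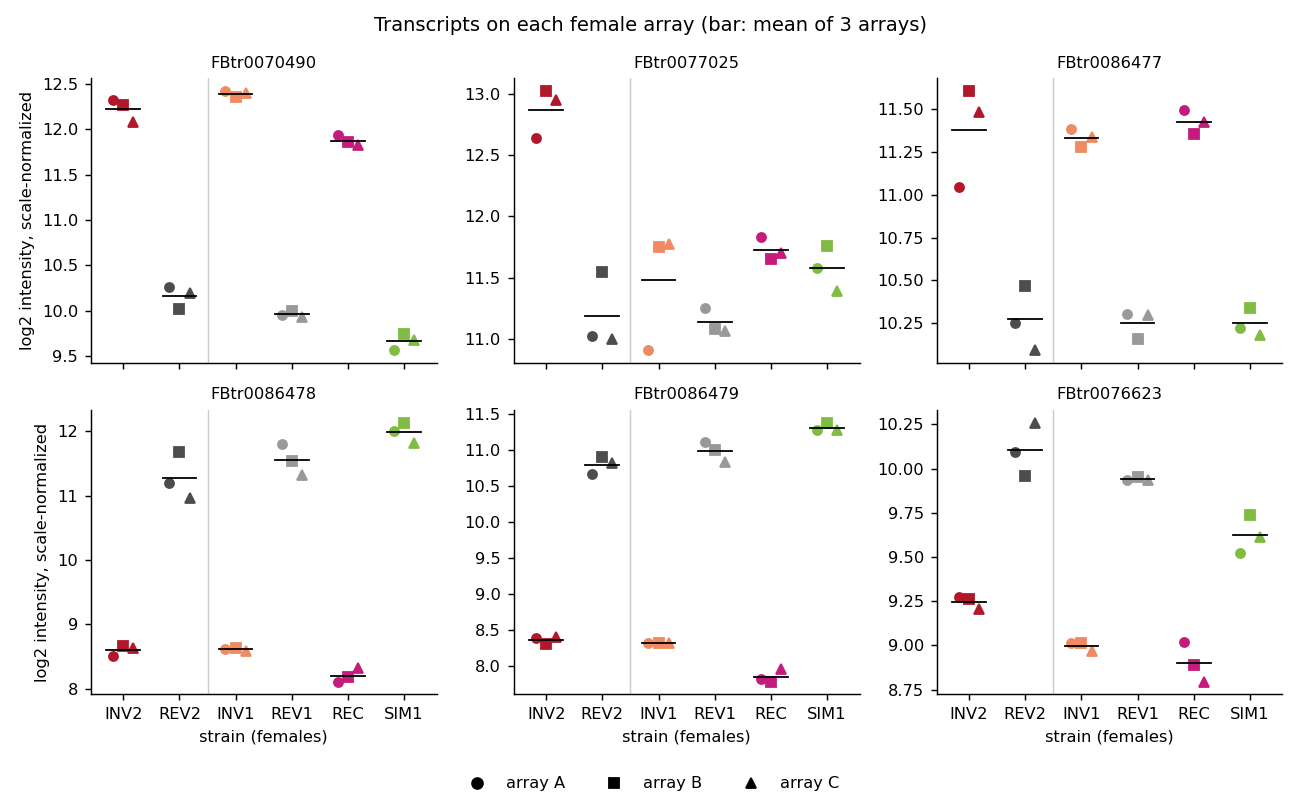
Log2 intensity (vertical, scale-normalized) of 6 transcripts on each female array of 6 strains (horizontal), with arrays A, B and C as circle, square and triangle and the strain mean as a bar. In FBtr0070490, FBtr0086477, FBtr0086478 and FBtr0086479 the INV1 and REC arrays lie on the side of INV2 and the REV1 and SIM1 arrays on the side of REV2. In FBtr0076623 SIM1 lies between the strains, and in FBtr0077025 INV2 stands above the other 5 strains.

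The other 4 strains place these differences. For each called transcript, the mean of REV2 females was set to 0 and that of INV2 females to 1, and the position of each other strain was read on that scale. The medians over the 67 transcripts were 0.89 for INV1, 0.09 for REV1, 0.65 for REC and 0.36 for SIM1. INV1 lay nearer to INV2 in 43 of the 67 transcripts (64.2%, against 55.4% of all transcripts). REC did so in 38 (56.7%, against 47.2%), SIM1 in 24 (35.8%, against 47.4%) and REV1 in 13 (19.4%, against 38.1%). No arrays of these 4 strains enter the difference itself, although their spread enters its error.

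The transcripts that rose and those that fell are given apart. Among the 44 that were higher in INV2, the median position was 1.005 for INV1 and 0.74 for REC, against 0.09 for REV1 and 0.30 for SIM1. Among the 23 that were lower in INV2, it was 0.42 for INV1, 0.39 for REC, 0.25 for REV1 and 0.55 for SIM1. These are descriptions, and the difference between the directions was not tested.

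In 17 of the 67 transcripts (25.4%, against 7.07% of all transcripts) INV1 and REC lay nearer to INV2 while REV1 and SIM1 lay nearer to REV2, the division by eye colour. Of these 17, 15 were higher and 2 were lower in INV2, and the 2 lower ones were FBtr0086478 and FBtr0086479. In FBtr0086478 the means of the other red-eyed strains were 8.61 ± 0.03 in INV1 and 8.20 ± 0.11 in REC, against 11.56 ± 0.24 in REV1 and 11.98 ± 0.16 in SIM1 (SD, n = 3 arrays each). In FBtr0070490 they were 12.39 ± 0.03 in INV1 and 11.87 ± 0.06 in REC, against 9.96 ± 0.03 in REV1 and 9.66 ± 0.09 in SIM1 (SD, n = 3 arrays each). REC carries the region intact, and in these transcripts its level was on the side of the strains in which the region is split.

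Only INV1 lay nearer to INV2, with the 3 strains of intact region nearer to REV2, in 5 of the 67 transcripts (7.46%, against 8.70% of all transcripts). This is the division by the inversion itself. INV1, REV1, REC and SIM1 all lay nearer to REV2 in 12 of the 67 (17.9%, against 23.6% of all transcripts), 7 higher and 5 lower in INV2. A strain close to the middle, as at a position of 0.48, still counted as nearer to REV2. FBtr0077025 was one of these 12. Its means were 12.87 ± 0.20 in INV2 and 11.19 ± 0.31 in REV2, with 11.48 ± 0.49 in INV1, 11.13 ± 0.10 in REV1, 11.73 ± 0.09 in REC and 11.57 ± 0.18 in SIM1 (SD, n = 3 arrays each).

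**Figure D3:**
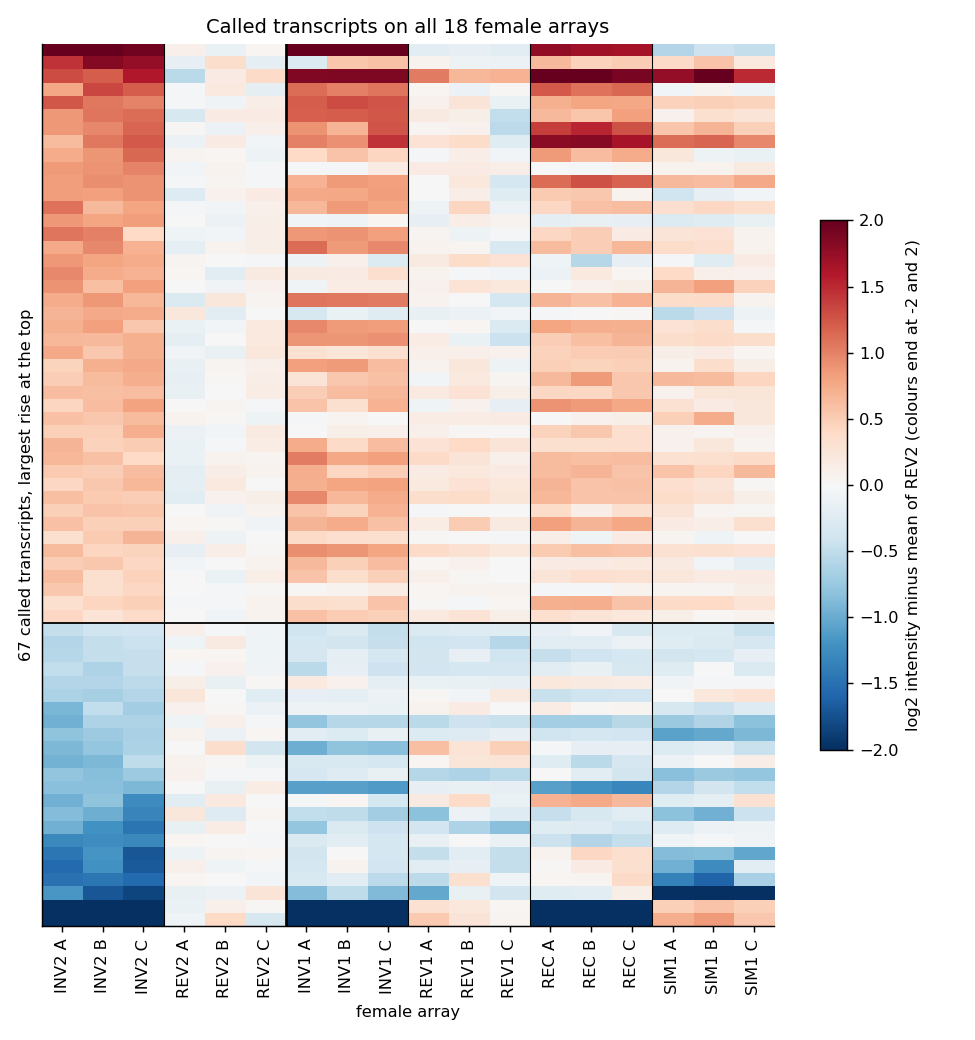
The 67 called transcripts (rows, from the largest rise to the largest fall) on the 18 female arrays (columns), coloured by log2 intensity minus the mean of the 3 REV2 arrays, with colours ending at -2 and 2. Above the horizontal line, at the 44 transcripts higher in INV2, many rows are also red in INV1 and REC, and below it most rows are pale in INV1.

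The equivalent pair INV1 and REV1 shares no array with INV2 and REV2. Comparing these strains in females called 881 transcripts (5.3% of all), 457 higher (2.75%) and 424 lower (2.55%) in INV1. This number moved widely with the processing, to 131 and 1154 at the extremes of leaving out 1 array. It was 388 in a one-way comparison with each transcript's own variance and 3376 with array weights. The overlap that follows rests on this number. Of the 67 transcripts, 33 were also called there, each in the same direction, which is 49.3% of the 67 and 3.75% of the 881. Of the 44 transcripts higher in INV2, 28 were called higher in INV1 as well, and their median INV1 minus REV1 difference was 0.50. Of the 23 lower in INV2, 5 were called lower in INV1, with a median difference of -0.18. The same sign was seen in 53 of the 67 (79.1%), against 62.1% of all transcripts.

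The largest falls are given next. Of the 10 transcripts lower in INV2 by more than 1 on the log2 scale, the 8 other than FBtr0086478 and FBtr0086479 were not called between INV1 and REV1. Their INV2 minus REV2 differences ranged from -1.57 to -1.01, whereas their INV1 minus REV1 differences ranged from -0.27 to 0.15. The difference between the pairs, tested below, was called for some of these 8, FBtr0086811 among them. For the others its limma adjusted p was 0.0386 to 0.322, so that those were not shown to differ between the pairs. FBtr0086811 is an example of a called one. It had 10.52, 10.78 and 10.26 on the INV2 arrays, against 11.87, 12.03 and 12.01 on the REV2 arrays, a difference of -1.45 ± 0.13 (SE, n = 3 arrays each, limma adjusted p = 1.17e-05). It had 11.59, 11.97 and 11.62 on the INV1 arrays, against 11.50, 11.76 and 11.50 on the REV1 arrays, which overlap (difference 0.15 ± 0.13, adjusted p = 0.519). By contrast, 6 of the 7 transcripts higher in INV2 by more than 1 on the log2 scale were called higher in INV1, all but FBtr0077025. The difference between the pairs was not called for FBtr0077025 (limma adjusted p = 0.0858).

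The difference between the pairs was tested in the same fit. The INV2 minus REV2 difference departed from the INV1 minus REV1 difference in 14 transcripts (0.0841%), 5 upward (0.0301%) and 9 downward (0.0541%), with 7 to 15 on leaving out 1 array, and in 1740 at an unadjusted p under 0.05 (10.5%). With quantile normalization it did so in 8, 2 upward and 6 downward. Of the 14, 10 were called between INV2 and REV2 only, 3 between INV1 and REV1 only and 1 in neither. The largest downward departures were -1.59 ± 0.18 for FBtr0086811 and -1.55 ± 0.16 for FBtr0076527, and the largest upward ones were 1.17 ± 0.17 for FBtr0076387 and 1.04 ± 0.09 for FBtr0077030 (SE, limma adjusted p = 0.000615, 0.000185, 0.00705 and 4.3e-05). FBtr0076387 was not called under 13 of 21 other settings, with adjusted p up to 0.0557. FBtr0077030 had 13.33, 13.37 and 13.47 on the INV2 arrays, against 12.42, 12.54 and 12.46 on the REV2 arrays, and its means were 12.51 ± 0.11 in INV1 and 12.63 ± 0.02 in REV1 (SD, n = 3 arrays each). FBtr0076527 was the reverse case. Its INV2 and REV2 arrays overlapped (means 9.51 ± 0.20 and 9.35 ± 0.15), and its INV1 mean of 10.37 ± 0.10 was far above its REV1 mean of 8.67 ± 0.18 (SD, n = 3 arrays each).

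REC and SIM1 differ in eye colour with the region intact in both. They also differ in the form of the elements and in the heat shock that SIM1 went through. Each is 1 strain, so these differences cannot be told apart. They share no array with INV2 and REV2, but the error of a transcript is again the shared one, so the calls are not independent. Between REC and SIM1 46 transcripts were called in females (0.276%), 28 higher (0.168%) and 18 lower (0.108%) in REC. Leaving out any one of the 6 arrays gave 20 to 35, and the one-way comparison gave 22, so that this overlap is uncertain too. Of the 67 transcripts, 15 were among them, which is 22.4% of the 67 and 32.6% of the 46. In 9 the direction was the same as between INV2 and REV2, and 7 of these were also called in that direction between INV1 and REV1. In the other 6 the direction was opposite. These 6 had INV2 minus REV2 differences from -1.57 to 0.78 and REC minus SIM1 differences from -0.57 to 2.03, and none was called between INV1 and REV1. In FBtr0086811, one of them, the means were 12.24 ± 0.18 in REC and 11.05 ± 0.10 in SIM1 (SD, n = 3 arrays each), so that SIM1 and INV2 were the low strains and REC and REV2 the high ones.

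Males of the same strains were measured on other arrays, but the sexes were separated from the progeny of the same crosses, so that males and females of a strain are not independent samples. The test of the difference between the sexes takes no account of this. Between INV2 and REV2 males 5 transcripts were called (0.0301%), 2 higher (0.012%) and 3 lower (0.018%) in INV2, and 391 had an unadjusted p under 0.05 (2.35%). All 5 are named here since they are so few. FBtr0086478 had 9.59, 9.28 and 9.73 on the male INV2 arrays, against 12.01, 12.23 and 12.49 on the male REV2 arrays, and FBtr0086479 had 9.12, 9.07 and 9.34, against 11.78, 11.89 and 11.91. The differences were -2.71 ± 0.16 for FBtr0086478 and -2.68 ± 0.09 for FBtr0086479. The female difference minus the male one was 0.03 (95% interval -0.42 to 0.48) for FBtr0086478 and 0.25 (0.01 to 0.50) for FBtr0086479, and neither was called (limma adjusted p = 0.999 each). FBtr0076623 was lower in INV2 males (-1.51 ± 0.14) and in INV2 females (-0.86 ± 0.08), and FBtr0086477 was higher in INV2 males (1.32 ± 0.18), as in females (SE, n = 3 arrays each). The limma adjusted p in males was 1.27e-07, 1.74e-10, 9.21e-05 and 0.00826 for these 4, in this order. FBtr0086477 lost its call, with adjusted p from 0.0287 to 0.0938, on leaving out any one of the 6 male arrays.

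The fifth, FBtr0089170, was called in males and not in females. It had 9.48, 9.42 and 9.42 on the male INV2 arrays, against 8.24, 8.01 and 8.01 on the male REV2 arrays, a difference of 1.36 ± 0.14. In females it had 7.75, 7.78 and 7.77 on the INV2 arrays, against 7.52, 7.79 and 7.67 on the REV2 arrays, which overlap, and these levels are in the dimmest of the 4 classes. Its difference in females departed from that in males by -1.25 ± 0.16 (SE, limma adjusted p = 0.000274), and it was the only transcript called in that test (0.00601%), in which 518 had an unadjusted p under 0.05 (3.11%). Leaving out the dimmest transcripts removed it and left 0 calls, and quantile normalization gave 6 calls, 5 of which were larger upward in females. FBtr0077025 fell short of the threshold, with a difference of 1.68 in females, -0.21 in males and 1.89 ± 0.32 between them (adjusted p = 0.0182). Its male levels were low, with means of 8.29 in INV2 and 8.50 in REV2, and no background signal is given. A strain difference in males could therefore be missed.

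The low number of calls in males stood beside a wide spread in other strains. The male arrays of INV1, REC and SIM1 had a median SD between arrays of 0.18 to 0.23, against 0.10 in INV2 males and 0.12 in REV2 males, and the test uses the spread of all 18 male arrays. The fit of the 6 male arrays alone, added after the spread was seen, called 7 transcripts (0.0421%) and gave 1139 at an unadjusted p under 0.05 (6.85%). With array weights over the 18 male arrays, which give scattered arrays less weight, 382 were called.

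The transcripts called in females mostly kept their direction in males. The same sign was seen in 58 of the 67 (86.6%), against 50.1% of all transcripts. All 23 that were lower in INV2 females were lower in INV2 males, with differences from -2.71 to -0.16, and 35 of the 44 that were higher in females were higher in males. The 3 male INV2 arrays did not overlap the 3 male REV2 arrays in 39 of the 67 (58.2%, against 12.3% of all transcripts), each time in the direction seen in females. An unadjusted p under 0.05 was found in 34 of the 67 (50.7%, against 2.35% of all transcripts), or in 41 with the 6 male arrays alone (61.2%, against 6.85%). The median male difference was 0.85 of the female one among the lower transcripts and 0.45 of it among the higher ones. The 8 large falls that were not called between INV1 and REV1 were all lower in INV2 males too, by -1.71 to -0.56, and none of them was called there.

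**Figure D4:**
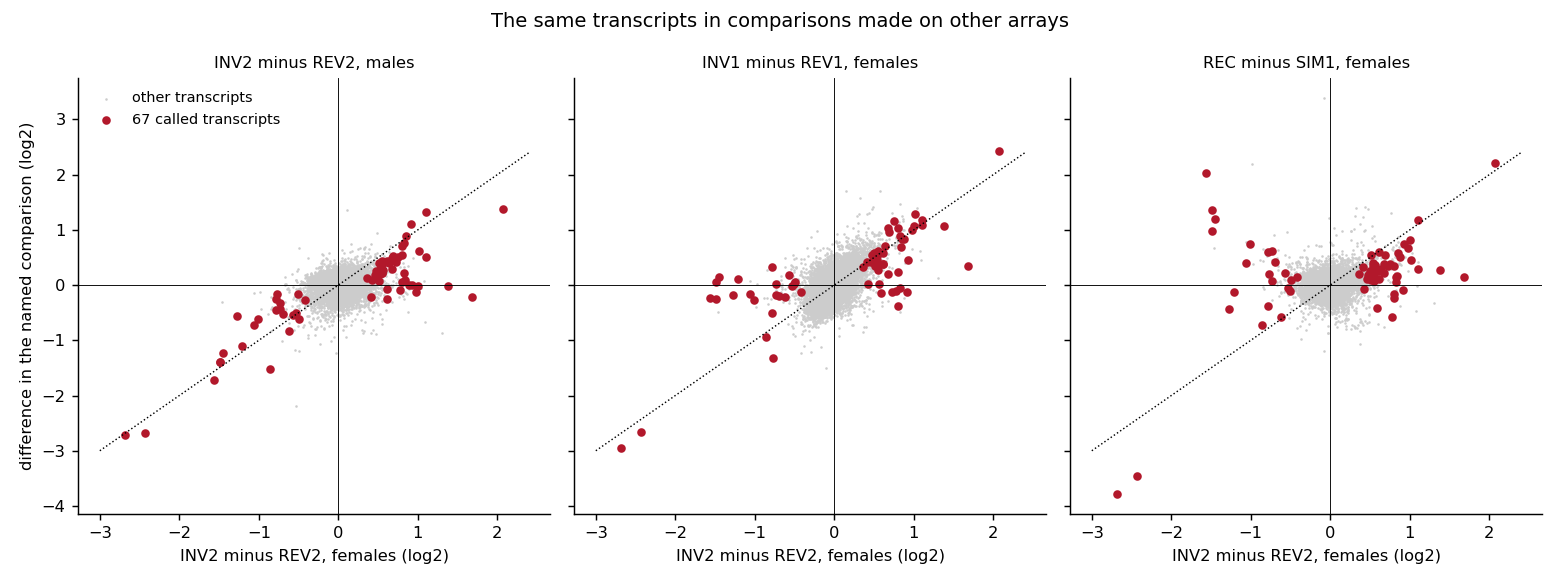
Log2 difference INV2 minus REV2 in females (horizontal) against the log2 difference in 3 comparisons made on other arrays (vertical), for the 67 called transcripts in red and all others in grey, with equality as a dotted line. In males 58 of the 67 have the same sign as in females. Between INV1 and REV1 a group of falls beyond -1 lies near 0, and between REC and SIM1 several of them lie above 0.

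The called transcripts were not spread evenly over the identifiers. In order of identifier number, 122 of the 167 consecutive stretches of up to 100 transcripts held none of the 67, 40 held 1 or 2 and 5 held 3 or more. The fullest stretches, with 7 and 5, adjoined each other. To bound this group, the nearest identifiers that could be paired with genes were used, FBtr0072789 (alpha-Spec, the alpha chain of the membrane skeleton protein spectrin) and FBtr0073063 (CG12016 and Dpm2), both of chromosome arm 3L. The range was chosen after the values were seen. It holds 198 transcripts, 1.19% of all, and 12 of the 67, or 17.9%. FlyBase numbers often follow the position of genes, but the positions of these transcripts are not given in the sources used here, and transcripts of 1 gene can be counted more than once.

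Within the range 6.06% of the transcripts were called, against 0.335% outside it, 9 higher and 3 lower in INV2. Their differences ranged from -1.27 to 1.001. An unadjusted p under 0.05 was found in 28.8% of the transcripts in the range and in 10.7% of those outside. Leaving out INV2 array B left 6 calls in the range, leaving out INV2 array C left 7, leaving out REV2 array A left 7, and the fit of the 6 female arrays alone called 1. That fit gave an unadjusted p under 0.05 in 22.2% of the range and 6.81% of the rest.

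The other comparisons gave the following shares for the range. Between INV1 and REV1 females 6.06% of its transcripts were called, against 5.29% outside it, and an unadjusted p under 0.05 was found in 28.8%, against 27.6%. Between REC and SIM1 females 1.52% were called, against 0.262% outside it, and an unadjusted p under 0.05 was found in 18.7%, against 10.9%. The transcripts of the range called in both comparisons had REC minus SIM1 differences of -0.43 and -0.57. Their INV2 minus REV2 differences were -1.27 and 0.78, so the directions did not match throughout. Such small shares rest on few calls, and the range was drawn around calls between INV2 and REV2. Of its 12 transcripts called between INV2 and REV2, 3 were called between INV1 and REV1. REV1 lay nearer to REV2 in all 12, INV1 in 10, SIM1 in 9 and REC in 8. All of these strains lay nearer to REV2 in 6 of the 12, and the range held 4 of the 14 transcripts whose difference departed between the pairs. In males none of the 198 was called, but 33 (16.7%) had an unadjusted p under 0.05, against 2.18% of those outside. With the 6 male arrays alone the shares were 25.3% and 6.62%. Of its 12 transcripts called in females, 10 had the same sign in males.

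**Figure D5:**
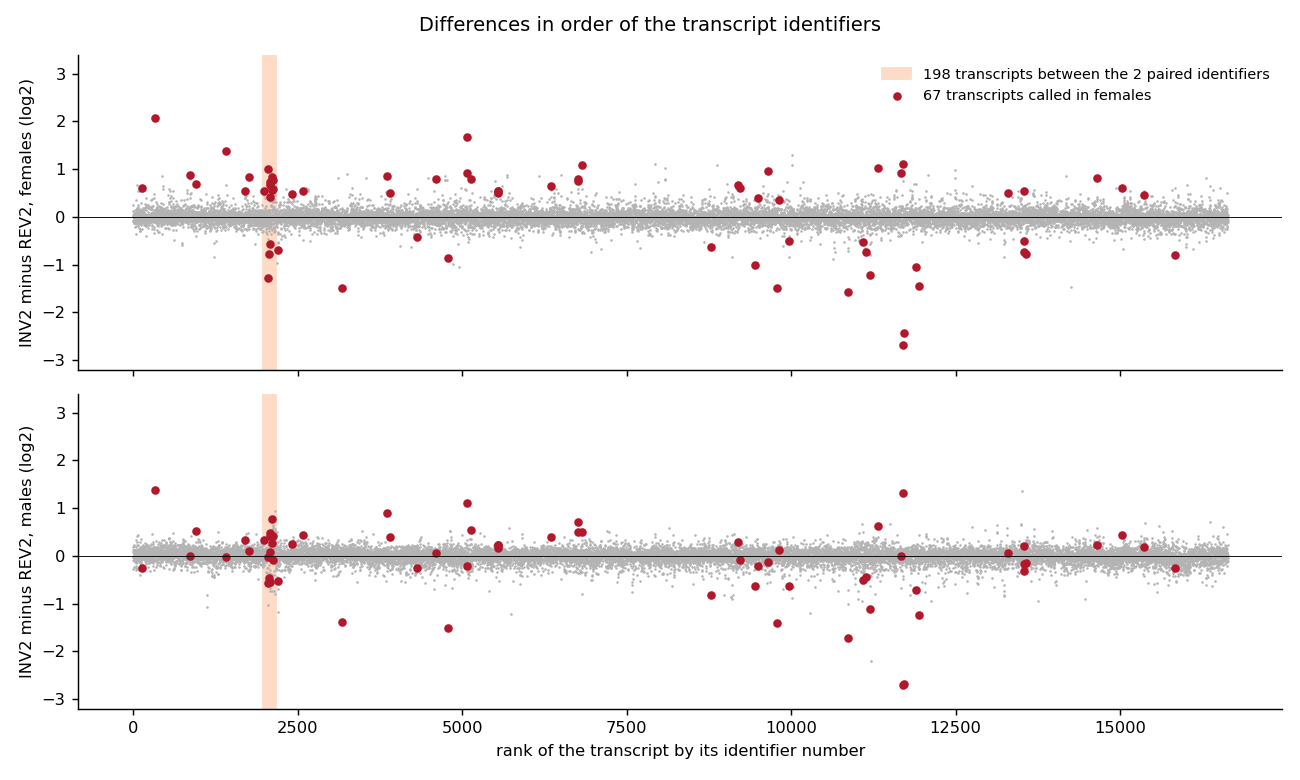
Log2 difference INV2 minus REV2 in females (upper panel) and males (lower panel) for all transcripts in order of identifier number, with the 67 transcripts called in females in red and the range of 198 transcripts between 2 identifiers paired with genes shaded. Of the 67, 12 fall in the shaded range, 9 of them above 0 and 3 below.

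Few transcripts could be named. The gene table contained 44 of the 16637 identifiers (0.264%), 28 of them with more than 1 gene, so that neither white nor the genes of the ultraconserved region could be looked up, nor markers of eye, brain, ovary or fat body. None of the 44 was called between INV2 and REV2 females, and 5 had an unadjusted p under 0.05 (11.4%, against 10.9% of all transcripts), so that neither count stands apart from the background. The one with the largest difference was FBtr0081102 (CG17325 and CG42305), with means of 11.75 in INV2 and 11.03 in REV2 and a difference of 0.73 ± 0.23 (SE, n = 3 arrays each, limma adjusted p = 0.201). Its INV1 minus REV1 difference was 1.30 (adjusted p = 0.00236). FBtr0080133 (Fatp1, a fatty acid transport protein) had means of 11.85 in INV2 and 11.58 in REV2, a difference of 0.27 ± 0.11 (adjusted p = 0.331), and a called difference of 0.57 between INV1 and REV1 (adjusted p = 0.00324). FBtr0085563 (CG7950 and Rpp14a, the second a subunit of the enzymes that trim tRNA precursors) had the lowest adjusted p of the 44, with means of 11.65 in INV2 and 11.94 in REV2 (difference -0.30 ± 0.08, adjusted p = 0.108).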

How the data were processed

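RNA of 50 flies per sample was labelled, hybridized, scanned and extracted by the array service (NimbleGen, one colour). Per the methods, the authors took the median of the log-transformed probes of each transcript and used limma's scale method between arrays. The deposited table holds the intensity, on a linear scale, of 16637 transcripts on 36 arrays, with 0 missing. Sorted values differed by at most 0.976% between female arrays, and 2 transcripts had one identical value on all female arrays, as would follow from quantile normalization within a sex, so that scale normalization may not be the only step applied. The table gives no background signal, so that low levels could not be set against one.

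After log2 conversion, limma's scale normalization was applied to the 36 arrays together, which multiplied female log2 values by 1.03 and male ones by 0.97. Strains were compared within a sex (18 arrays, 1 mean per strain, no filter) and the sexes over 36 arrays with limma 3.58.1 (lmFit, eBayes) in R 4.3.3. The Benjamini-Hochberg adjusted p had to be under 0.01 for a call. The tests were tested on simulated data.

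The members, comparisons and lists were chosen with earlier results of these data known. Transcripts named were the 2 with the largest difference per direction among those called without overlap, the 2 largest per direction of each difference test and, among those called, up to 10 per direction that are paired with a gene (0 were called). The range of identifiers, the transcripts called in males and the 3 named by gene were chosen after the values were seen. Gene names came from RefSeq (assembly Release 6 plus ISO1 MT). The arrays follow an older annotation release, so no coordinates or sequences are given. Alternatives were other normalizations, a filter on dim transcripts, another variance model, weights per array and a block for the replicate letter. Further ones were an adjusted p under 0.05, a one-way comparison with each transcript's own variance, the 6 arrays alone and leaving out each array. The one-way comparison took contrasts from the one-way fit and is not the authors' post-hoc test, so its counts are not theirs. Alternatives for the range, the transcripts of the difference tests and of males, the 6 male arrays alone and the omission of 2 arrays together were added after seeing the data.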

Additional observations from a re-analysis of the deposited data

Results flagged for a closer look

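In 14 transcripts the difference INV2 minus REV2 departed from INV1 minus REV1 in females, by the test of that difference (limma, adjusted p under 0.01). The departures were -1.59 in FBtr0086811, -1.55 in FBtr0076527, 1.17 in FBtr0076387 and 1.04 in FBtr0077030, where a negative value means that INV2 minus REV2 was the lower. FBtr0076387 lost its call under 13 of the 21 settings run, with adjusted p of 0.00474 to 0.0557. The departures of FBtr0077030 and FBtr0076527 kept theirs under all 21, with adjusted p up to 0.00033 and 0.00487. That of FBtr0086811 did so under 20, and the one-way comparison gave an adjusted p of 0.0105.

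In 1 transcript, FBtr0089170, the difference INV2 minus REV2 departed between the sexes, by -1.25 in females minus males, and this held under the 20 settings in which it was tested (adjusted p of 2.15e-07 to 0.00749).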

How the results depend on the processing

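The values as deposited and scale normalization within the sex gave the numbers of calls of all 6 comparisons again. Within a sex the scale step multiplies log2 values by nearly the same factor on each array. These settings could therefore hardly change a comparison within a sex, although they are counted among the settings under which calls were kept. The one-way comparison called 24 transcripts between INV2 and REV2 females, 388 between INV1 and REV1, 22 between REC and SIM1 and 6 for the difference between the pairs. At an adjusted p under 0.05 these numbers were 178, 2183, 79 and 25, with 3 for the difference between the sexes. Array weights gave 3376 for INV1 and REV1, 71 for REC and SIM1, 25 for the difference between the pairs, 382 for INV2 and REV2 males and 32 for the difference between the sexes. Quantile normalization gave 8 for the pairs and 6 for the sexes, and for INV2 and REV2 males 1 higher and 3 lower, against 2 and 3. Without the dimmest 25% of transcripts the sexes gave 0. The 6 arrays alone gave 12 for INV2 and REV2 females. The cause of these changes was not tested.

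Leaving out 1 array gave 33 to 82 calls for INV2 and REV2 females, 131 to 1154 for INV1 and REV1, 20 to 35 for REC and SIM1, 7 to 15 for the difference between the pairs, 4 each time for INV2 and REV2 males and 1 to 2 for the difference between the sexes. For INV1 and REV1 these were 277, 450 and 166 without INV1 arrays A, B and C and 131 and 136 without REV1 arrays B and C. For REC and SIM1 they were 20 and 23 without REC arrays A and B and 28 and 26 without SIM1 arrays A and B. For the difference between the pairs they were 9 and 7 without INV2 arrays B and C, 7 without REV1 array B or C and 8 without REV2 array A or C. For the difference between the sexes they were 2 without female REV2 array B or male REV2 array C. Under all 28 alternatives planned for INV2 and REV2 females, 8 of the 67 transcripts remained called. FBtr0070490, FBtr0086478 and FBtr0086479 were called under each.

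Among INV2 and REV2 females, deviations of arrays of the same letter correlated by 0.18 (A), 0.53 (B) and -0.16 (C). Those of INV1 and REV1 females correlated by -0.19, -0.04 and 0.23 and those of REC and SIM1 females by 0.14, 0.07 and 0.30. Across letters, INV2 array A correlated by 0.60 with REV2 array C and by -0.65 with REV2 array B. Correlations of so few arrays cannot decide whether the letters pair the samples. Whether a letter ties the males and females of a strain was not examined. With the letter as a block, 63 transcripts were called between INV2 and REV2 females, 890 between INV1 and REV1, 32 between REC and SIM1, 10 for the difference between the pairs, 5 in males and 1 for the difference between the sexes. Of the 67 transcripts, 56 were among the 63.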
